A study of Oreochromis niloticus with 16 samples.

Results

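The libraries compared here are those of whole Nile tilapia (Oreochromis niloticus) embryos at 4 and 3 days post-fertilization (dpf), 2 of the 16 small RNA libraries of the series. They were chosen by the stage given in the sample labels and by no measured value, though earlier results of these data were known. The series also holds embryos or larvae of 2, 5 and 10 dpf and 11 libraries of 7 adult tissues, which serve below only to place the levels found. The 4 dpf embryos carry the stage label Pharyngula and the 3 dpf embryos the stage label Gastrula segmentation. Both are of the Chitralada strain, with no treatment stated. RNA of both was taken with Trizol and made into TruSeq small RNA libraries for the Illumina GAIIx. The number of embryos in a library is not given in the sources used here. With 1 library per stage no difference could be tested. All intervals below are 95% intervals of counting error only, and they do not cover differences between embryos. Reads carry no molecular identifiers, so copies of 1 molecule cannot be told apart and the intervals may be too narrow.

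A microRNA (miRNA) is cut from a hairpin precursor, whose 2 arms can each give a mature miRNA, named 5p or 3p, that pairs with messenger RNAs and lowers their use. Many miRNAs belong to a cell type, and in zebrafish most of them appear as the organs form, after the early embryo has passed gastrulation. Neighbouring miRNAs are often made from a single transcript. The files name 577 mature miRNAs on 366 hairpins with both arms named. Where several loci give the same mature miRNA, its reads were divided over the loci in the deposited counts and summed here per name.

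The 4 dpf library held 2155481 divided reads and the 3 dpf library 4615084, within the range of 833147 to 11517368 over all 16 libraries. Levels are divided reads per 1000000 of the library total (CPM). At least 1 read was found for 510 names at 4 dpf and 518 names at 3 dpf, of which 488.4 would be expected at 3 dpf with the depth of 4 dpf. A count of 0 allows up to 3 reads, or 1.39 CPM at 4 dpf and 0.650 CPM at 3 dpf. The 5p arms gave 81.0% of reads at 4 dpf and 81.2% at 3 dpf. The 10 most abundant names held 63.4% of reads at 4 dpf and 65.5% at 3 dpf, and conserved names held 99.4% and 99.3% in the same libraries.

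Marker miRNAs of several organs were found in both libraries. Muscle, neural, blood, liver and epithelial miRNAs were all present at both stages, with miR-206-3p of skeletal muscle at 5908 CPM at 4 dpf and 6537 CPM at 3 dpf. The gonad miRNA miR-202-5p, which marks ovary and testis, was close to the limit, with 7 reads at 4 dpf and 9 reads at 3 dpf, and its partner miR-202-3p had 0 reads in both. miRNAs of the early embryo, of the miR-430 family, were not analysed here.

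miR-199a-5p, a miRNA of mesenchyme made from a transcript antisense to dynamin genes, became the most abundant name at 4 dpf, where miR-10b-5p, which lies among the Hox genes, led at 3 dpf. miR-199a-5p accounted for 20.2% of reads at 4 dpf, against 6.72% at 3 dpf, a ratio of 3.01 (2.99 to 3.02). miR-10b-5p accounted for 9.94% at 4 dpf, against 16.9% at 3 dpf, a ratio of 0.588 (0.585 to 0.591). These 2 names carried the largest gain and the largest loss in CPM, 134951 and -69743 CPM. In bulk RNA of a whole embryo, fewer cells of a type and less RNA per cell cannot be told apart, and a CPM is a share of the library.

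Other abundant names shifted in both directions. miR-100-5p had 96844 CPM at 4 dpf and 69583 CPM at 3 dpf. miR-126-3p, a miRNA of endothelial cells in an intron of the egfl7 gene, had 41381 CPM at 4 dpf and 22125 CPM at 3 dpf. miR-99a-5p had 29916 CPM at 4 dpf and 11390 CPM at 3 dpf. Together with miR-183-5p these were, after miR-199a-5p, the names with the largest gains. The largest losses after miR-10b-5p were those of miR-10d-5p, miR-92a-3p, miR-21-5p and miR-9-5p-2. miR-10d-5p had 56729 CPM at 4 dpf and 101906 CPM at 3 dpf, and miR-21-5p had 23133 CPM at 4 dpf and 53555 CPM at 3 dpf. miR-181a-5p, on the other hand, kept a similar place, with 40827 CPM at 4 dpf and 50870 CPM at 3 dpf.

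Of the 297 names with a mean of at least 10 CPM over the 2 libraries, 91 (30.6%) were at least 2-fold higher at 4 dpf and 25 (8.42%) at least 2-fold lower. At 4-fold, 20 names (6.73%) were higher and 5 (1.68%) lower. The median ratio of 4 dpf over 3 dpf was 1.43, or 0.51 on the log2 scale, so single ratios are best read against it. The balance of the calls depends on the scaling. TMM factors assume that most names are equal, and here they moved every log2 ratio by -0.46. With them, 56 names were higher (18.9%) and 53 lower (17.8%). Counts under TMM in the groups below are to be read against these shares. Of the 116 names past 2-fold, 81 stayed past it under TMM. All 25 lower names are among them by arithmetic, since a factor that lowers every ratio cannot bring them back. It is also too small to turn a higher name into a lower one. The intervals of 68 higher and 20 lower names lay wholly beyond 2-fold.

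**Figure D1:**
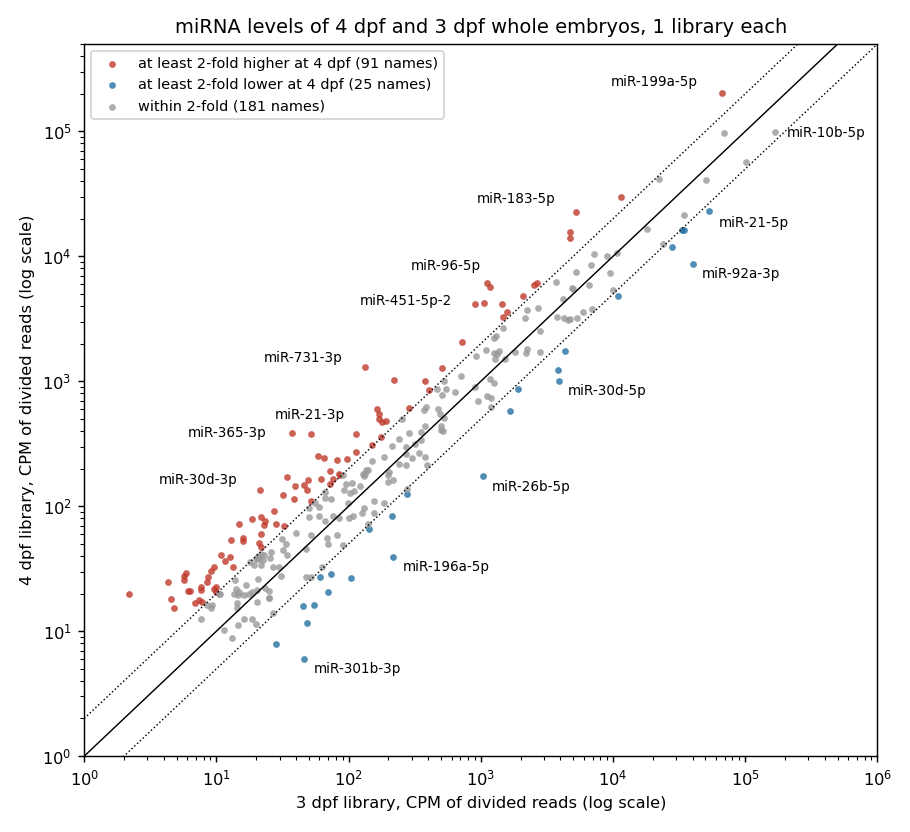
CPM of each of the 297 names in the 4 dpf library (vertical axis) against the 3 dpf library (horizontal axis), both on log scales, 1 point per name. The solid line marks equal levels and the dotted lines 2-fold. The 91 names above the upper line include miR-199a-5p at 202153 CPM, and the 25 names under the lower line include miR-301b-3p at 6.03 CPM at 4 dpf.

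The largest ratio belonged to miR-365-3p, with 381.8 CPM at 4 dpf (356 to 409) and 37.3 CPM at 3 dpf (31.9 to 43.3), a ratio of 10.2 (8.68 to 12.1). Next came miR-731-3p, of a pair of neighbouring fish miRNAs, with 1297 CPM at 4 dpf and 132.8 CPM at 3 dpf (ratio 9.76, 8.94 to 10.7). miR-n791-5p, with the n of a putative species-specific miRNA, followed on few reads, 43 at 4 dpf and 10 at 3 dpf (ratio 9.21, 4.56 to 20.5). Several of the other large ratios were those of partner arms that are scarce beside the main arm of their hairpin. miR-21-3p had 380.0 CPM at 4 dpf and 52.2 CPM at 3 dpf (ratio 7.28), and miR-30d-3p had 135.5 CPM at 4 dpf and 21.2 CPM at 3 dpf (ratio 6.38). miR-n780-3p, also a scarce arm, had 27.8 CPM at 4 dpf and 5.63 CPM at 3 dpf (ratio 4.94). miR-147-5p, in contrast, is the arm of its hairpin with more reads. It had 24.6 CPM at 4 dpf and 4.33 CPM at 3 dpf (ratio 5.67), on 53 and 20 reads. The remaining names among the 12 largest ratios were sensory, neural and red blood cell miRNAs, described with their groups below.

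At the other end, miR-301b-3p had 6.03 CPM at 4 dpf (3.21 to 10.3) and 46.2 CPM at 3 dpf (40.2 to 52.8), a ratio of 0.131 (0.0685 to 0.228). miR-26b-5p, which lies in an intron of a phosphatase gene in vertebrates, had 174.1 CPM at 4 dpf and 1033 CPM at 3 dpf (ratio 0.169, 0.151 to 0.187). By their ratios both stood more than 5-fold lower at 4 dpf, and miR-196a-5p did too. The intervals of miR-301b-3p and miR-196a-5p also took in differences smaller than 5-fold. miR-30d-5p was at 1003 CPM at 4 dpf and 3878 CPM at 3 dpf (ratio 0.259). miR-139-3p had 7.89 CPM at 4 dpf and 28.4 CPM at 3 dpf (ratio 0.278), and miR-n363-3p had 20.4 CPM at 4 dpf and 69.6 CPM at 3 dpf (ratio 0.293). With at least 10 reads in 1 library, 2 names had 0 reads in the other. Names at 0 in 1 library with fewer reads in the other are not listed here. miR-n378-3p had 11 reads at 4 dpf and 0 at 3 dpf, 7.85-fold higher at 4 dpf against the floor of 3 reads. miR-7147-3p had 0 reads at 4 dpf and 10 at 3 dpf, 1.56-fold lower at 4 dpf against the same floor. These folds leave out the counting error of the 11 and 10 reads, and neither name reached a mean of 10 CPM.

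Mesenchyme and cartilage miRNAs, led by miR-199a-5p, took 210292 CPM together at 4 dpf and 72660 CPM at 3 dpf. Of the 4 of 11 members with enough reads, 2 were higher (50%, against 30.6% of all names) and 0 lower. The median ratio was 2.13 against 1.43 over all names. miR-214-3p, made from the same transcript as miR-199a in mammals, had 549.8 CPM at 4 dpf and 170.3 CPM at 3 dpf, a ratio of 3.23 close to that of miR-199a-5p. miR-199a-3p, the other arm of its hairpin, had 7521 CPM at 4 dpf and 5246 CPM at 3 dpf (ratio 1.43). Hence the difference in CPM lay almost wholly in the 5p arm.

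Endothelial and smooth muscle miRNAs stood at 44497 CPM together at 4 dpf and 25190 CPM at 3 dpf. Most of this sum was miR-126-3p. Of 6 names 2 were higher (33.3%, against 30.6% of all names) and 1 lower (16.7%, against 8.42%), with a median ratio of 1.88. miR-143 and miR-145, made from a single transcript in smooth muscle, did not move together arm by arm. miR-145-5p had 251.9 CPM at 4 dpf and 58.9 CPM at 3 dpf (ratio 4.27), and miR-145-3p had 997 CPM at 4 dpf and 528.3 CPM at 3 dpf (ratio 1.89). miR-143-5p had 145.7 CPM at 4 dpf and 39.2 CPM at 3 dpf (ratio 3.71), whereas miR-143-3p, its main arm, had 862 CPM at 4 dpf and 1897 CPM at 3 dpf (ratio 0.454). Accordingly, 3 of these 4 arms had ratios above 1, and the most abundant of them at 3 dpf had the ratio below 1.

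Of the neural miRNAs, the longest of the lists, 13 of 32 were higher (40.6%, against 30.6% of all names) and 2 lower (6.25%, against 8.42%), with a median ratio of 1.79. miR-124a-3p, which is abundant in neurons, had 4178 CPM at 4 dpf (4092 to 4265) and 910.3 CPM at 3 dpf (883 to 938), a ratio of 4.59 (4.42 to 4.76). The other miR-124 names compared had ratios of 2.66 (miR-124a-5p-2), 0.573 (miR-124a-5p) and 0.348 (miR-124b-3p, the lowest of the list). The 2 lower neural names were miR-124b-3p and miR-9-5p-2. miR-132-3p and miR-212-5p, neighbours that respond to neuronal activity in mammals, had ratios of 4.91 and 3.29, and miR-212-5p-2 a log2 ratio of 1.05. miR-137b-3p, of the brain, had 594.3 CPM at 4 dpf and 163.2 CPM at 3 dpf (ratio 3.64). miR-129-3p-2 had 63 reads at 4 dpf and 27 reads at 3 dpf (ratio 5.00, 3.14 to 8.16). The 17 neural names within 2-fold lay on both sides of 1. Among them, miR-128-5p had a ratio of 0.512 and miR-219-3p 0.518, while miR-128-3p had 1.76 and miR-219-5p 1.66. miR-338-3p, a brain miRNA of mammals that is not on this list, was at 172.1 CPM at 4 dpf and 34.0 CPM at 3 dpf (ratio 5.06).

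The summed level of the neural names was nevertheless lower at 4 dpf, 51148 CPM, than at 3 dpf, 59974 CPM, since miR-9, a miRNA of neural progenitors, makes up most of it. miR-9-5p-2 had 16287 CPM at 4 dpf and 34167 CPM at 3 dpf (ratio 0.477). The 3p arms of miR-9 split by name. miR-9-3p-2 was at 10004 CPM at 4 dpf and 8990 CPM at 3 dpf, miR-9-3p-5 at 7317 CPM at 4 dpf and 9427 CPM at 3 dpf, and miR-9-3p-3 at 4263 CPM at 4 dpf and 1048 CPM at 3 dpf. The names with a final number are near copies that can share reads, so the split between them is uncertain. Under TMM, 10 of the 32 neural names were higher and 5 lower, against 18.9% and 17.8% of all names.

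In the sensory group, the miR-183, miR-96 and miR-182 cluster of photoreceptors and hair cells was unequal. miR-183-5p had 22610 CPM at 4 dpf and 5237 CPM at 3 dpf, a ratio of 4.32 (4.25 to 4.38), and miR-96-5p had 6148 CPM at 4 dpf and 1110 CPM at 3 dpf, a ratio of 5.54 (5.36 to 5.72). miR-182-5p-2 stood at 5428 CPM at 4 dpf and 4979 CPM at 3 dpf (ratio 1.09), and miR-182-5p at a ratio of 1.20. The 5p arms of miR-183 and miR-96 thus gained far more than those of miR-182, beyond counting error. The main arms of the lens and pigment epithelium miRNAs were lower. miR-184-3p had 4845 CPM at 4 dpf and 10898 CPM at 3 dpf (ratio 0.445), and miR-204-5p had 1226 CPM at 4 dpf and 3802 CPM at 3 dpf (ratio 0.322). Their scarce arms had ratios above 1, with 1.21 for miR-184-5p, 1.56 for miR-204-3p and 1.91 for miR-204-3p-3, though that of miR-184-5p was 0.876 under TMM. Of 12 names 3 were higher (25%, against 30.6% of all names) and 3 lower (25%, against 8.42%). The list median was 1.37, and 1.00 under TMM.

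**Figure D2:**
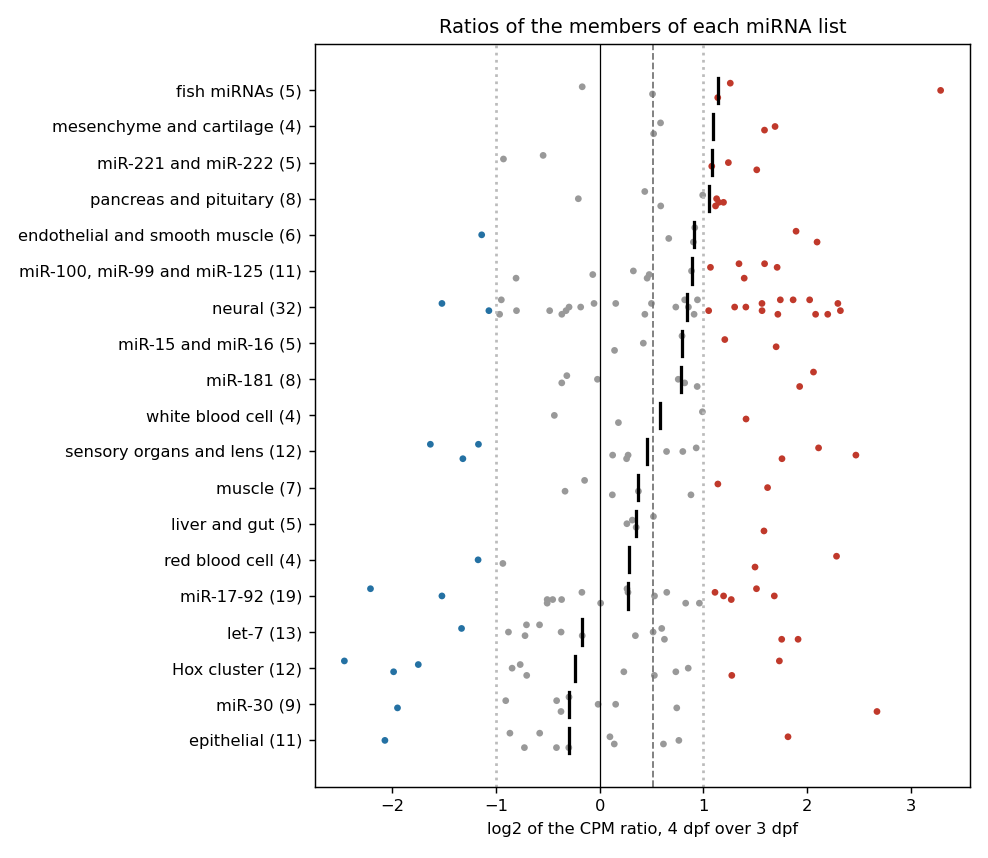
The log2 ratio of CPM, 4 dpf over 3 dpf (horizontal axis), of each member of 19 miRNA lists (rows, with the number of names in parentheses). Red points are at least 2-fold higher at 4 dpf, blue points at least 2-fold lower and grey points between. Black bars are list medians and the dashed line is the median of all 297 names, 0.51. Medians run from 1.14 for the fish miRNAs to -0.30 for the epithelial miRNAs.

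Red blood cell miRNAs diverged by arm. miR-451-5p-2, which is made without Dicer in red cells of fish and mammals, had 5659 CPM at 4 dpf and 1162 CPM at 3 dpf, a ratio of 4.87 (4.71 to 5.03). miR-144-3p, from the same transcript, had 2043 CPM at 4 dpf and 723.5 CPM at 3 dpf (ratio 2.82). The more abundant arm of that hairpin, miR-144-5p, was at 12581 CPM at 4 dpf and 24040 CPM at 3 dpf (ratio 0.523), and miR-451-3p at 26.9 CPM at 4 dpf and 60.7 CPM at 3 dpf (ratio 0.444). Together the red blood cell names took 20311 CPM at 4 dpf and 25988 CPM at 3 dpf. Of the white blood cell names, 1 of 4 was higher (25%, against 30.6% of all names) and 0 lower. miR-142a-5p, of blood cells, had 474.1 CPM at 4 dpf and 178.3 CPM at 3 dpf (ratio 2.66), while miR-142a-3p had a ratio of 1.13 (0.906 to 1.41) that does not exclude equal levels. miR-223-5p, of myeloid cells, had 77 reads at 4 dpf and 83 reads at 3 dpf (ratio 1.99).

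Muscle miRNAs were nearly level. They summed to 11781 CPM at 4 dpf and 11758 CPM at 3 dpf. Of 7 names 2 were higher (28.6%, against 30.6% of all names) and 0 lower, with a median ratio of 1.30, or 0.94 under TMM. miR-1-3p had 4568 CPM at 4 dpf and 4199 CPM at 3 dpf (ratio 1.09), and miR-133a-3p had 821.6 CPM at 4 dpf and 634.4 CPM at 3 dpf (ratio 1.30). miR-206-3p, given above, had a ratio of 0.904. The names past 2-fold were miR-133b-3p and miR-133a-5p, with ratios of 2.20 and 3.07.

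Liver and gut miRNAs were close to the median of all names, with a median ratio of 1.28, or 0.92 under TMM. Of 5 names 1 was higher (20%, against 30.6% of all names) and 0 lower. miR-122-5p, the main liver miRNA, had 1746 CPM at 4 dpf and 1369 CPM at 3 dpf (ratio 1.28). miR-192-5p, of gut and liver, had 8486 CPM at 4 dpf and 6825 CPM at 3 dpf (ratio 1.24), and miR-194a-5p had a ratio of 1.43. In the pancreas and pituitary group, 4 of 8 names were higher (50%, against 30.6% of all names) and 0 lower, with a median of 2.08. miR-216a-5p, of the exocrine pancreas, had 3242 CPM at 4 dpf and 1463 CPM at 3 dpf (ratio 2.22), and its neighbour miR-217-5p had 3227 CPM at 4 dpf and 2146 CPM at 3 dpf. miR-7a-5p, of endocrine cells, had a ratio of 0.867. The 4 higher names had ratios of 2.17 to 2.29. Under TMM 0 of the 8 were higher and 0 lower, against 18.9% and 17.8% of all names.

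Epithelial miRNAs had the lowest list median, 0.813, with 1 of 11 higher and 1 lower (9.09% each, against 30.6% and 8.42% of all names). miR-203a-3p and miR-205-5p, of the skin, stood at ratios of 0.549 and 0.669. The lower name, miR-205-3p, had 11.6 CPM at 4 dpf and 48.8 CPM at 3 dpf (ratio 0.238), while miR-205-3p-2 had a ratio of 1.07. The higher name was miR-200b-5p, with a ratio of 3.52. In the miR-200 family, which keeps epithelial cells from turning mesenchymal, miR-200a-3p had 3234 CPM at 4 dpf and 5350 CPM at 3 dpf, and miR-200b-3p had 6235 CPM at 4 dpf and 3674 CPM at 3 dpf, ratios of 0.604 and 1.70. Under TMM 4 of the 11 epithelial names were lower and 1 higher, against 17.8% and 18.9% of all names.

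The Hox cluster names, whose genes lie between Hox genes that pattern the body axis, together held 188175 CPM at 4 dpf and 313491 CPM at 3 dpf. Of 12, 2 were higher (16.7%, against 30.6% of all names) and 3 lower (25%, against 8.42%), with a median ratio of 0.849. Under TMM 6 of the 12 were lower and 1 higher, against 17.8% and 18.9% of all names. The 3 lower names were all of miR-196, which sits near the posterior Hox genes. miR-196a-5p had 39.4 CPM at 4 dpf and 217.3 CPM at 3 dpf, a ratio of 0.181 (0.144 to 0.227). miR-196b-5p had 26.4 CPM at 4 dpf and 104.9 CPM at 3 dpf (ratio 0.252), and miR-196a-3p-2 had a ratio of 0.297. miR-196b-3p, in contrast, had 32.5 CPM at 4 dpf and 13.4 CPM at 3 dpf, a ratio of 2.42, and was 1 of the 2 higher names. In the miR-10 family, miR-10b-5p, miR-10c-5p and miR-10d-5p had ratios of 0.588, 0.614 and 0.557, whereas miR-10a-5p had 10397 CPM at 4 dpf and 7216 CPM at 3 dpf (ratio 1.44). So among these 5p arms miR-10a-5p stood apart, close to the median of all names. The 3p arms of its relatives had ratios of 1.17 (miR-10b-3p), 1.81 (miR-10b-3p-2), 1.66 (miR-10d-3p) and 3.32 (miR-10c-3p, the other higher name).

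In the miR-17-92 family, which promotes cell division, miR-92a-3p accounted for most of the difference in summed level, 19306 CPM at 4 dpf and 47846 CPM at 3 dpf. miR-92a-3p had 8690 CPM at 4 dpf (8566 to 8816) and 40226 CPM at 3 dpf (40043 to 40409), a ratio of 0.216 (0.213 to 0.219). miR-92b-3p had 577.1 CPM at 4 dpf and 1657 CPM at 3 dpf (ratio 0.348). These were the only lower names of 19 (10.5%, against 8.42% of all names), while 5 were higher (26.3%, against 30.6%). miR-25-3p, which shares the seed of miR-92, had 6073 CPM at 4 dpf and 2654 CPM at 3 dpf (ratio 2.29). The list median was 1.21, and 0.88 under TMM.

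miR-100, miR-99 and miR-125, which in vertebrates lie in clusters with let-7, took 158249 CPM at 4 dpf and 91750 CPM at 3 dpf. Of 11 names 5 were higher (45.5%, against 30.6% of all names) and 0 lower, with a median of 1.85. Under TMM 2 of the 11 were higher and 1 lower, against 18.9% and 17.8% of all names, with a median of 1.34. miR-125b-5p had 15542 CPM at 4 dpf and 4749 CPM at 3 dpf (ratio 3.27), and miR-125a-5p had 14107 CPM at 4 dpf and 4687 CPM at 3 dpf (ratio 3.01). let-7, which marks late developmental time in worms, did not go with them. let-7a-5p had 3574 CPM at 4 dpf and 5888 CPM at 3 dpf (ratio 0.607), let-7g-5p had 3143 CPM at 4 dpf and 4700 CPM at 3 dpf (ratio 0.669), and let-7d-5p had a ratio of 0.890. The family had 2 of 13 names higher (15.4%) and 1 lower (7.69%, against 8.42% of all names), with a median of 0.890. The higher ones were the scarce arms let-7a-3p-5 and let-7d-3p. Under TMM 2 of the 13 were higher and 5 lower, against 18.9% and 17.8% of all names, with a median of 0.645.

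Of the other families, miR-221 and miR-222 had 3 of 5 names higher (60%, against 30.6% of all names) and 0 lower. The higher ones included miR-221-3p with 4138 CPM at 4 dpf and 1449 CPM at 3 dpf (ratio 2.86) and miR-222a-3p with a ratio of 2.36. The fish miRNAs had 3 of 5 higher (60%), with miR-462-5p at 3833 CPM at 4 dpf and 2693 CPM at 3 dpf (ratio 1.42). miR-15 and miR-16 had 2 of 5 higher (40%), with miR-16a-5p at a ratio of 2.31. miR-181 had 2 of 8 higher (25%), both of them scarce 3p arms. None of these 4 groups had a lower name on plain totals, while under TMM 2 names of miR-221 and miR-222, both 5p arms of miR-222a, were lower. Higher under TMM were 1 name of miR-221 and miR-222, 1 fish miRNA, 1 name of miR-15 and miR-16 and 2 of miR-181. Of all names 18.9% were higher and 17.8% lower under TMM. miR-30 had 1 of 9 higher and 1 lower (11.1% each), the 2 arms of miR-30d, and a median of 0.814. miR-30e-5p, its most abundant member, had 5344 CPM at 4 dpf and 10016 CPM at 3 dpf (ratio 0.534). Among the n-named miRNAs 7 of 34 were higher (20.6%) and 3 lower (8.82%, against 8.42% of all names), with a median of 1.25. Under TMM 5 of these 34 were higher and 7 lower, close to the 18.9% and 17.8% of all names. The n-named miRNAs together took 0.579% of reads at 4 dpf and 0.652% at 3 dpf.

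The arms of some hairpins differed in direction. Of the pairs of 5p and 3p names that both had enough reads, 11 (9.02%) were past 2-fold higher in both arms, 1 (0.820%) was lower in both (miR-196a), and 12 (9.84%) were past 2-fold in opposite directions. In 7 of the 12 the 5p name was the lower one, as in miR-21, where miR-21-5p had a ratio of 0.432 and miR-21-3p a ratio of 7.28. miR-30d-5p and miR-30d-3p had ratios of 0.259 and 6.38, and miR-190a-5p and miR-190a-3p ratios of 0.392 and 4.53. In the other direction, miR-301b-5p had a ratio of 3.31 and miR-301b-3p a ratio of 0.131, and miR-139-5p had a ratio of 2.37 and miR-139-3p a ratio of 0.278. The scaling cannot bring the arms of such a pair together, since it moves both alike, though under TMM miR-139-5p and miR-196b-3p came within 2-fold, at 1.72 and 1.75.

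The share of a hairpin's reads from its 5p arm does not depend on the scaling at all. With at least 50 reads over both arms at both stages, 247 hairpins were followed, some of them copies with the same pair of mature names. The arm that dominated, with a Wilson interval clear of 50%, was 5p at both stages in 148 and 3p at both in 82. The median size of the difference between the stages was 1.98 points. In 46 hairpins (18.6%) the shares differed by 10 points or more with intervals apart, 23 with a higher and 23 with a lower 5p share at 4 dpf. The dominant arm differed in 6 hairpins (2.43%) with 5 pairs of arms. A further 11 hairpins had a dominant arm at 1 stage only, 9 of them at 3 dpf and 2 at 4 dpf.

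mir-731 had the change of arm with the most reads behind it. Its 5p share was 44.5% at 4 dpf (43.1 to 45.9%, 5035 reads) and 89.8% at 3 dpf (89.0 to 90.5%, 6005 reads). miR-731-5p itself had 1039 CPM at 4 dpf and 1168 CPM at 3 dpf, a ratio of 0.889 (0.645 under TMM), beside the ratio of 9.76 of miR-731-3p. mir-301b had the largest difference, with a 5p share of 83.3% at 4 dpf (73.5 to 90.0%, 78 reads) and 16.5% at 3 dpf (12.4 to 21.5%, 255 reads). The 2 copies of mir-n363, which share their reads, had 86.8% at 4 dpf and 41.0% or 41.3% at 3 dpf. mir-219-1, a hairpin of the brain and of myelinating cells, had 69.3% at 4 dpf and 39.2% at 3 dpf, and mir-223 had 65.8% at 4 dpf and 41.7% at 3 dpf. Each of these but mir-731 had at most 274 reads per library, and at a minimum of 500 reads mir-731 was the only one left.

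Some hairpins had a dominant arm at 3 dpf and an interval that took in 50% at 4 dpf. They included mir-196b, with 44.9% at 4 dpf (36.5 to 53.6%) and 88.6% at 3 dpf (85.7 to 91.0%), and mir-190a, with 53.0% at 4 dpf and 92.9% at 3 dpf at both of its copies. mir-26b had 52.9% at 4 dpf and 84.0% at 3 dpf, and mir-22b had 56.3% at 4 dpf and 25.8% at 3 dpf. The reverse held for mir-130c-2, with 81.8% at 4 dpf and 49.2% at 3 dpf. Other hairpins kept their dominant arm with a large difference in share. The 2 copies of mir-222a had 17.4% and 20.4% at 4 dpf, and 48.7% and 47.0% at 3 dpf. mir-n784, with 55 reads at 4 dpf, had 65.5% at 4 dpf and 90.4% at 3 dpf. mir-27c had 37.3% at 4 dpf and 10.9% at 3 dpf. mir-9 copies of shared reads had 73.2% at 4 dpf and 95.9% at 3 dpf, which are not separate measurements.

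**Figure D3:**
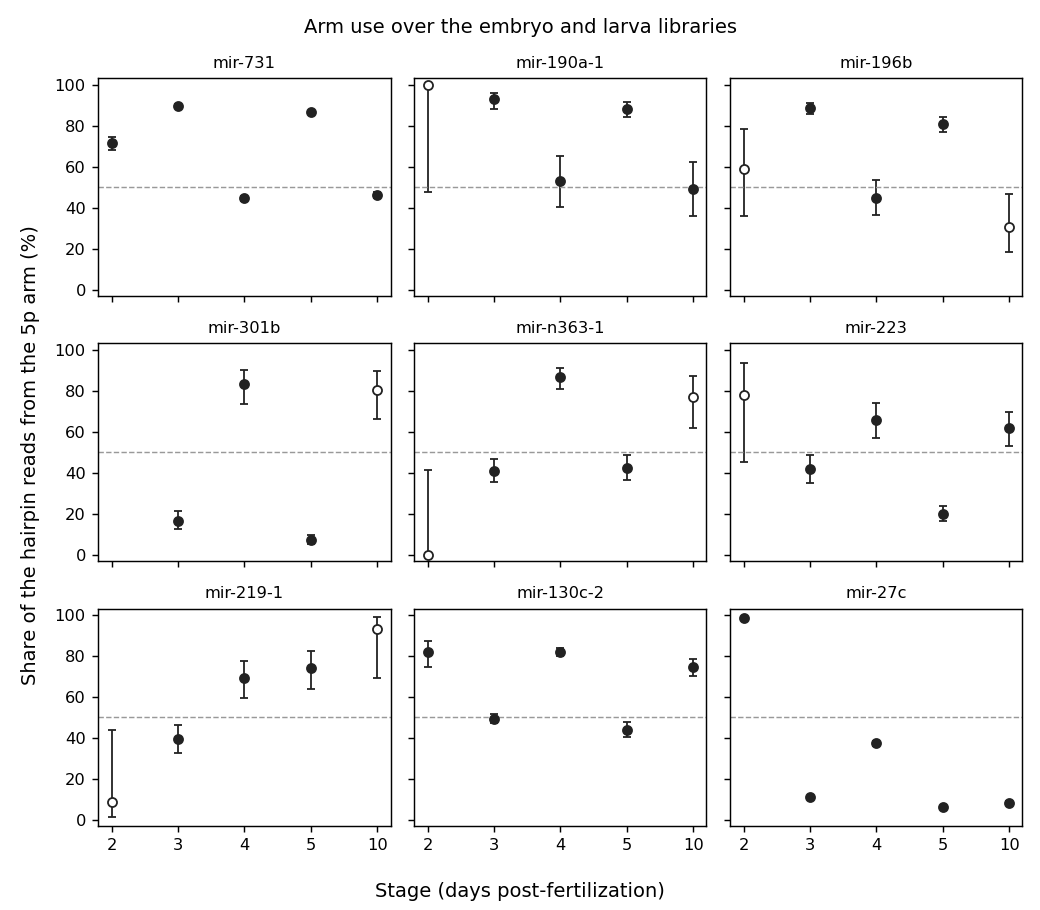
Share of the reads of 9 hairpins that came from the 5p arm (vertical axis, percent) in the libraries of 2, 3, 4, 5 and 10 dpf (horizontal axis). Bars are Wilson 95% intervals, open points rest on fewer than 50 reads and the dashed line is at 50%. mir-731 had shares of 89.8, 44.5, 86.6 and 46.2% at 3, 4, 5 and 10 dpf.

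Arms that are scarce in adult tissues had a higher median ratio than main arms. The main arm is the one with more reads in the adult libraries, which the comparison did not use. Of 111 scarce arms, 43 were higher and 4 lower, with a median ratio of 1.78. Of 150 main arms, 43 were higher and 17 lower, with a median of 1.17. Over all 297 names 91 were higher (30.6%) and 25 lower (8.42%), with a median of 1.43. Under TMM the scarce arms had 28 higher and 12 lower with a median of 1.29, and the main arms 25 higher and 33 lower with a median of 0.85. All 297 names had 56 higher (18.9%) and 53 lower (17.8%) under TMM, with a median of 1.03. The scarce arms held 4.90% of reads at 4 dpf and 4.64% at 3 dpf. Scarce arms had fewer reads, and the filter on the mean admits a low name through the stage where it is high. Among names with a mean of at least 100 CPM, scarce arms had 12 higher and 0 lower of 40 (median 1.46) and main arms 32 higher and 13 lower of 118 (median 1.17). All 169 names of that level had 45 higher (26.6%) and 16 lower (9.47%), with a median of 1.25.

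By adult tissue of the highest level, 27 of the 91 higher names were brain names (29.7%, against 21.2% of all 297), and 24 were liver names (26.4%, against 24.2%). Of the 25 lower names 9 were highest in red muscle (36%, against 15.8%), among them miR-92a-3p, miR-196a-5p and miR-26a-5p, and 7 in gonad (28%, against 16.8%). In the other direction, 3 of the lower names were brain names and 1 was a liver name.

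The levels at the other stages place the pair. Over these 297 names, the rank correlation of levels (Spearman) was 0.931 between 4 and 3 dpf, 0.878 between 5 and 4 dpf and 0.876 between 5 and 3 dpf. It was 0.914 between 10 and 4 dpf and 0.835 between 10 and 3 dpf, and 0.948 between 10 and 5 dpf. These are values across names, which are not independent replicates. The calls of 4 over 3 dpf, 30.6% higher and 8.42% lower, stand beside those of the other adjacent stages with the same filter in each pair. Of the names compared, 82.2% were higher and 3.56% lower at 3 dpf over 2 dpf, 39.6% higher and 21.6% lower at 5 dpf over 4 dpf, and 15.4% higher and 24% lower at 10 dpf over 5 dpf.

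The 5 dpf library shows where the called names stood a day later. Of the 25 names lower at 4 dpf, 20 stood above their 4 dpf level at 5 dpf, and 29 of the 91 higher names did, against 50.5% of all 297 names. The ratios of 5 over 4 dpf and of 4 over 3 dpf share the 4 dpf library, so names chosen as low there tend to stand higher at 5 dpf. miR-26b-5p had 3.12, 1033, 174.1, 3152 and 394.9 CPM at 2, 3, 4, 5 and 10 dpf, and miR-204-5p had 52.3, 3802, 1226, 14391 and 1930 CPM. Their levels alternated from 3 dpf on, low at 4 and 10 dpf. miR-92a-3p, with 2593, 40226, 8690, 13650 and 1372 CPM, also alternated from 3 dpf on, but with 3 dpf far above all other stages. miR-199a-5p had 21061, 67203, 202153, 94345 and 253285 CPM, and miR-183-5p had 7988, 5237, 22610, 17638 and 45007 CPM at the same stages, both with a lower value at 5 dpf than at 4 dpf. miR-124a-3p had 5.53, 910.3, 4178, 3212 and 4688 CPM, so its step at 4 dpf was followed by a similar level.

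**Figure D4:**
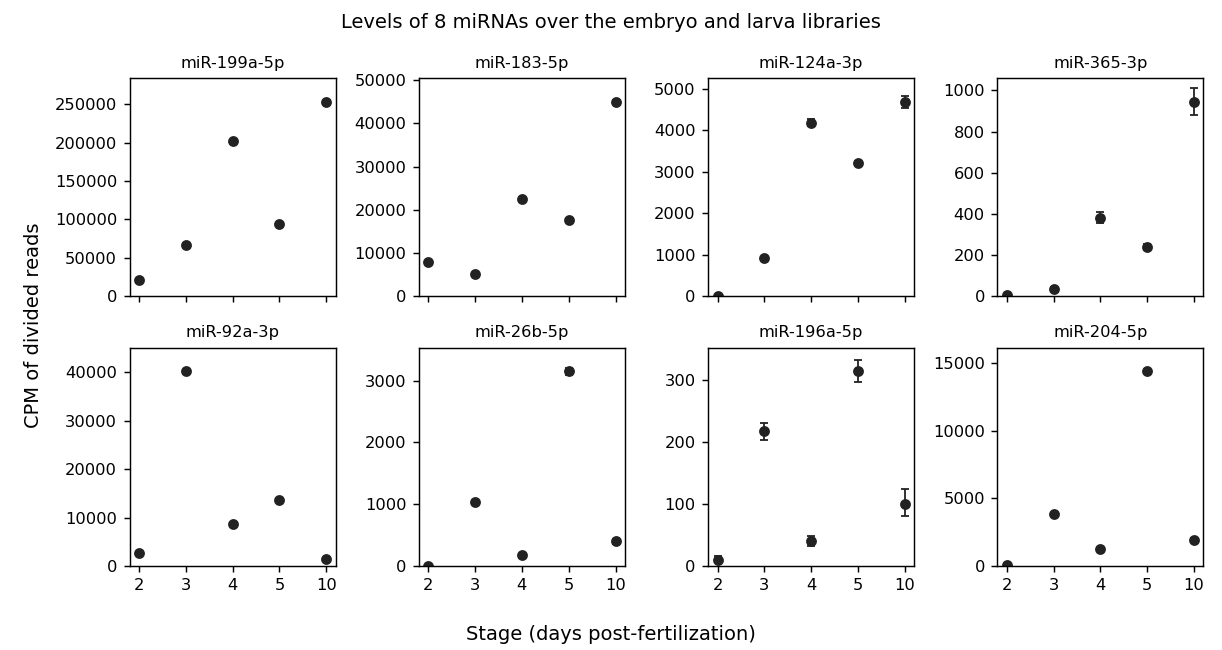
CPM of divided reads (vertical axes, linear, each from 0) of 8 miRNAs in the libraries of 2, 3, 4, 5 and 10 dpf (horizontal axis), with exact Poisson 95% intervals. The upper row holds names higher at 4 dpf than at 3 dpf and the lower row names lower at 4 dpf. In the lower row 5 dpf stands above 4 dpf in each panel.

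A pair of libraries that had no part in the calls moved alike. The ratio of 10 dpf over 5 dpf was above 1 for 77 of the 91 higher names (84.6%) and for 0 of the 25 lower names, against 47.5% of all 297. Its median was 1.62 for the higher names, 0.262 for the lower names and 0.965 for all. Across the 297 names the log2 ratios of the pairs had a Pearson correlation of 0.70 and a Spearman correlation of 0.68, as a description. The 5p shares did the same. Between 4 and 3 dpf, 34 pairs of arms with reads enough at 5 and 10 dpf differed by 10 points or more. Of these, 31 (91.2%) differed in the same direction between 10 and 5 dpf, against 71.1% of all pairs followed there. In the plot of arm use, mir-731 and mir-223 show it. The 10 and 4 dpf libraries were also the shallower of each pair, with 833147 and 2155481 divided reads, against 3690648 at 5 dpf and 4615084 at 3 dpf. The part of depth in this likeness was not tested, and the labels give no date or batch of preparation.

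**Figure D5:**
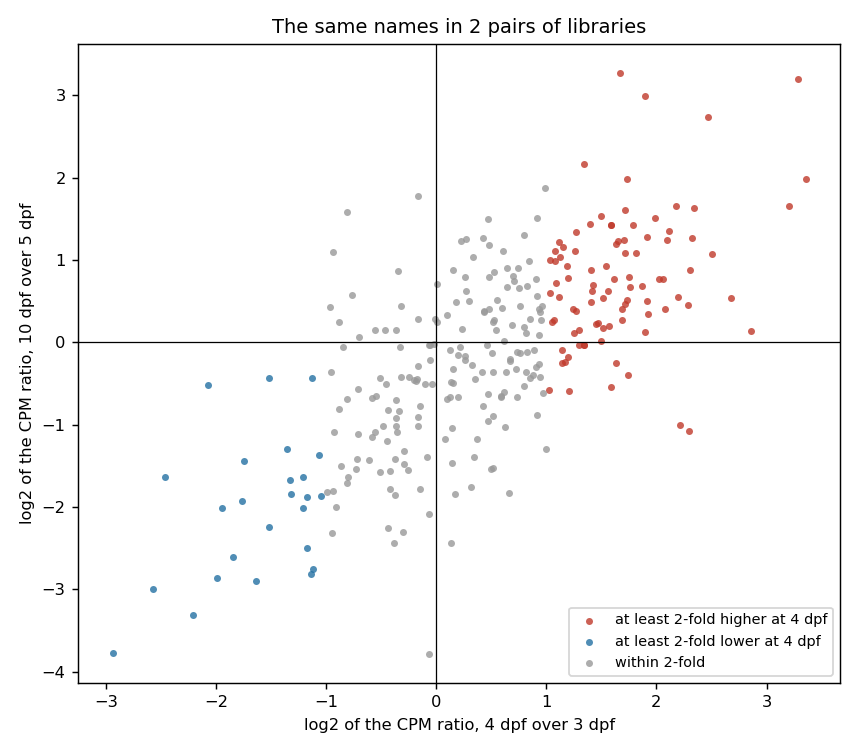
The log2 ratio of CPM of 10 dpf over 5 dpf (vertical axis) against that of 4 dpf over 3 dpf (horizontal axis) for the 297 names, 1 point per name. Red points are at least 2-fold higher at 4 dpf, blue points at least 2-fold lower and grey points between. All 25 blue points lie below 0 on the vertical axis, and 77 of 91 red points lie above it.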

How the data were processed

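Each library has 1 file of 736 lines, 1 per arm and locus, of which 2 without a mature name and with 0 reads were left out. The authors deposited whole-number counts, in which a read counts at each locus it matches, and estimated counts, in which it is divided over those loci. Neither is normalized. Positions of precursors were set by PaTMan on the oreNil2 genome per the paper, and DESeq is listed, with no version, in the submitters' processing notes. Which tool counted the reads is not given in the sources used here. Estimated counts were summed per mature name and divided by the library total (CPM per 1000000). Names with a mean of at least 10 CPM over the 2 libraries were compared by their ratio, called at 2-fold, with an exact conditional (Clopper-Pearson) interval. CPM have exact Poisson and arm shares Wilson intervals, all at 95%. A library at 0 entered at a floor of 3 reads. No test was made, as each stage has 1 library. Alternatives were TMM factors (edgeR 4.0.16 with limma 3.58.1, R 4.3.3), size factors (DESeq2 1.42.0), other filters and the whole-number counts, whose totals were 5063694 at 4 dpf and 9937136 at 3 dpf. Python 3.11.15 with numpy 2.4.6, scipy 1.17.1, pandas 2.3.3 and matplotlib 3.10.9 did the rest, and the calls were checked on simulated data. Named are the 12 largest ratios in each direction, the 8 most abundant names per library, the 5 largest gains and losses in CPM, the 3 most abundant members of each of 21 lists, hairpins with another dominant arm, the 8 largest differences in 5p share in each direction, and names at 0 in 1 library with at least 10 reads in the other. Cluster partners, other arms and the names given for miR-124, miR-128, miR-133, miR-137, miR-125a, miR-182, miR-212, miR-219, miR-26a and let-7 3p arms were added after their values were seen. The early embryo list had no member here and was not analysed. The comparison and the lists, which rest on textbook knowledge, were chosen with earlier results of these data known.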

Additional observations from a re-analysis of the deposited data

How the results depend on the processing

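The counts past 2-fold depended on the scaling and on the filter. Of all names, 56 were higher and 53 lower under TMM, and 52 higher and 55 lower with DESeq2 size factors, against 91 and 25 on plain totals. The higher share of the calls was 51.4% under TMM and 48.6% with size factors, against 78.4%. With no filter 201 were higher and 48 lower, and with a mean of at least 100 CPM 45 were higher and 16 lower. Among members of any list, of which 56 were higher and 15 lower, 35 were higher and 33 lower under TMM, 33 higher and 35 lower with size factors, 96 higher with no filter and 30 higher at 100 CPM. At a minimum of 500 reads per hairpin, 1 hairpin had another dominant arm, against 6, and 25 differed by 10 points or more, against 46. The total without miR-10b-5p (82 higher, 33 lower) kept 107 of the 116 calls and the whole-number counts 88. With the whole-number counts no called name changed direction. The other scalings could not change a direction, since each multiplies every ratio by the same factor, too small to turn a call round. TMM and size factors assume that most names are equal, which cannot be checked with 1 library per stage. No paired analysis was possible because each stage has 1 library and the labels carry no shared replicate numbers.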

Other observations

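Among names on no list, miR-146a-5p, a regulator of innate immune signals, had 11947 CPM at 4 dpf and 27678 CPM at 3 dpf (ratio 0.432), close to the ratio of miR-21-5p. miR-n771-3p and miR-n631-5p were lower at 4 dpf with ratios of 0.458 and 0.462, and nearly absent later. miR-n771-3p had 693.5, 274.8, 125.7, 4.88 and 0 CPM at 2, 3, 4, 5 and 10 dpf, and miR-n631-5p had 66.9, 141.7, 65.4, 8.13 and 1.20 CPM. In adults both were highest in gonad. miR-27c-5p had 904.3, 220.1, 1019, 579.0 and 289.3 CPM over the same stages. These names were chosen after their values were seen.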
